A study of Homo sapiens with 4 samples.

Results

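Cell division depends on the spindle, a microtubule array nucleated by centrosomes, and on the kinetochore, the protein assembly that ties each centromere to spindle microtubules. The 54 mitotic spindle and kinetochore genes described here were listed by symbol, with no threshold on their values but with earlier results of these data known. All 54 were found among the 27452 genes of the count table, and all 54 passed the filter on low counts that left 15199 genes for testing. The inner kinetochore is the constitutive centromere-associated network (CCAN), built on the centromeric histone CENPA. The outer kinetochore is the KMN network, which includes KNL1 and the NDC80 complex and binds microtubules. Unattached kinetochores hold back the anaphase-promoting complex through the spindle checkpoint, and separase then opens cohesin at anaphase. Most of these genes are transcribed in G2 and M phase, from promoters bound by the MuvB-based DREAM, B-MYB and FOXM1 complexes, and their RNAs are abundant in proliferating cell lines.

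RNA sequencing of total RNA compared 2 libraries labelled STAT3 shRNA with 2 labelled Ctrl shRNA, all from a cell line given as HepG2, an established human hepatoma line. The hairpins lower STAT3, a transcription factor activated by cytokine receptors, or serve as control, and the question was what lowering STAT3 does to other genes. The labels give no hairpin sequence, clone number or time after introduction. They do not say whether 1 and 2 are separate cultures or separate hairpins, so the spread behind the p-values may be technical. The STAT3 shRNA libraries held 25862027 and 17694642 reads, and the Ctrl shRNA libraries 19283150 and 20133064 reads, so that 3 reads equalled 0.116 to 0.17 CPM (reads scaled to library size). STAT3 itself was at 34.7 and 36.1 CPM with STAT3 shRNA, against 245 and 244 CPM with Ctrl shRNA, 6.91-fold lower (log2 fold change -2.79 ± 0.09, SE; adjusted p = 3.28e-07, two-sided edgeR quasi-likelihood test). Hepatocyte markers were at or near 0, which goes against the liver label. ALB had 0 and 0.163 CPM with STAT3 shRNA and 0 and 0 CPM with Ctrl shRNA. APOA1 had 0.0375 and 0.109 CPM with STAT3 shRNA and 0 and 0 CPM with Ctrl shRNA. TF had 0.9 and 0.435 CPM with STAT3 shRNA and 2.01 and 2.14 CPM with Ctrl shRNA, and HNF4A 7.2 and 4.95 CPM with STAT3 shRNA and 1.27 and 1.78 CPM with Ctrl shRNA. The other 5 of 9 listed hepatocyte markers were not analysed here. The summed marker level of leukocytes (3 of 5 genes, mostly CD68) was 24.5 and 28.2 CPM with STAT3 shRNA and 11.1 and 14.8 CPM with Ctrl shRNA. CD68 carried this difference, while CD14 and LYZ were at most 0.477 CPM in any library. The summed marker level of fibroblasts (5 of 6 genes) was 35.6 and 35.5 CPM with STAT3 shRNA and 52.8 and 60.7 CPM with Ctrl shRNA. COL1A1 carried the difference, at 15 and 14.3 CPM with STAT3 shRNA and 38.1 and 43.2 CPM with Ctrl shRNA, while DCN was at 14.6 and 15.3 CPM with STAT3 shRNA and 10.4 and 11.3 CPM with Ctrl shRNA. The level of endothelial markers (2 of 4 genes) was at most 1.75 CPM in any library. Their part in the results was not tested.

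The mitotic genes were higher with STAT3 shRNA more often than lower, and the shift was small for most of them. Of the 54 genes 19 (35.2%) rose and 5 (9.26%) fell at an adjusted p under 0.05 (two-sided edgeR quasi-likelihood test, with p-values adjusted by Benjamini-Hochberg over all tested genes), while 30 did not pass. Of all 15199 tested genes 35.5% changed, with 16.8% higher and 18.7% lower. The mitotic genes thus had a larger share of rises and a smaller share of falls than that background. The median log2 fold change of the 54 genes was 0.14, against 0.02 over all tested genes, and 41 of the 54 values were positive. A shift of similar size lay between the 2 control libraries. The median log2 ratio of Ctrl shRNA library 1 to library 2 was 0.11 over the 54 genes, against 0.0024 over all tested genes, and 42 of the 54 ratios were positive. Between STAT3 shRNA library 1 and library 2 the median was 0.03, with 32 positive. Their RNA made up 0.688% and 0.666% of reads with STAT3 shRNA and 0.585% and 0.512% of reads with Ctrl shRNA. Both STAT3 shRNA libraries lay above both Ctrl shRNA libraries in 32 genes and below both in 11, and the groups overlapped in the other 11. Over all tested genes the corresponding shares were 36.5% above and 34.3% below. In bulk RNA, more cells in G2 and M phase and more RNA of these genes per cell cannot be told apart, nor can fewer cells and less RNA where a gene fell.

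**Figure D1:**
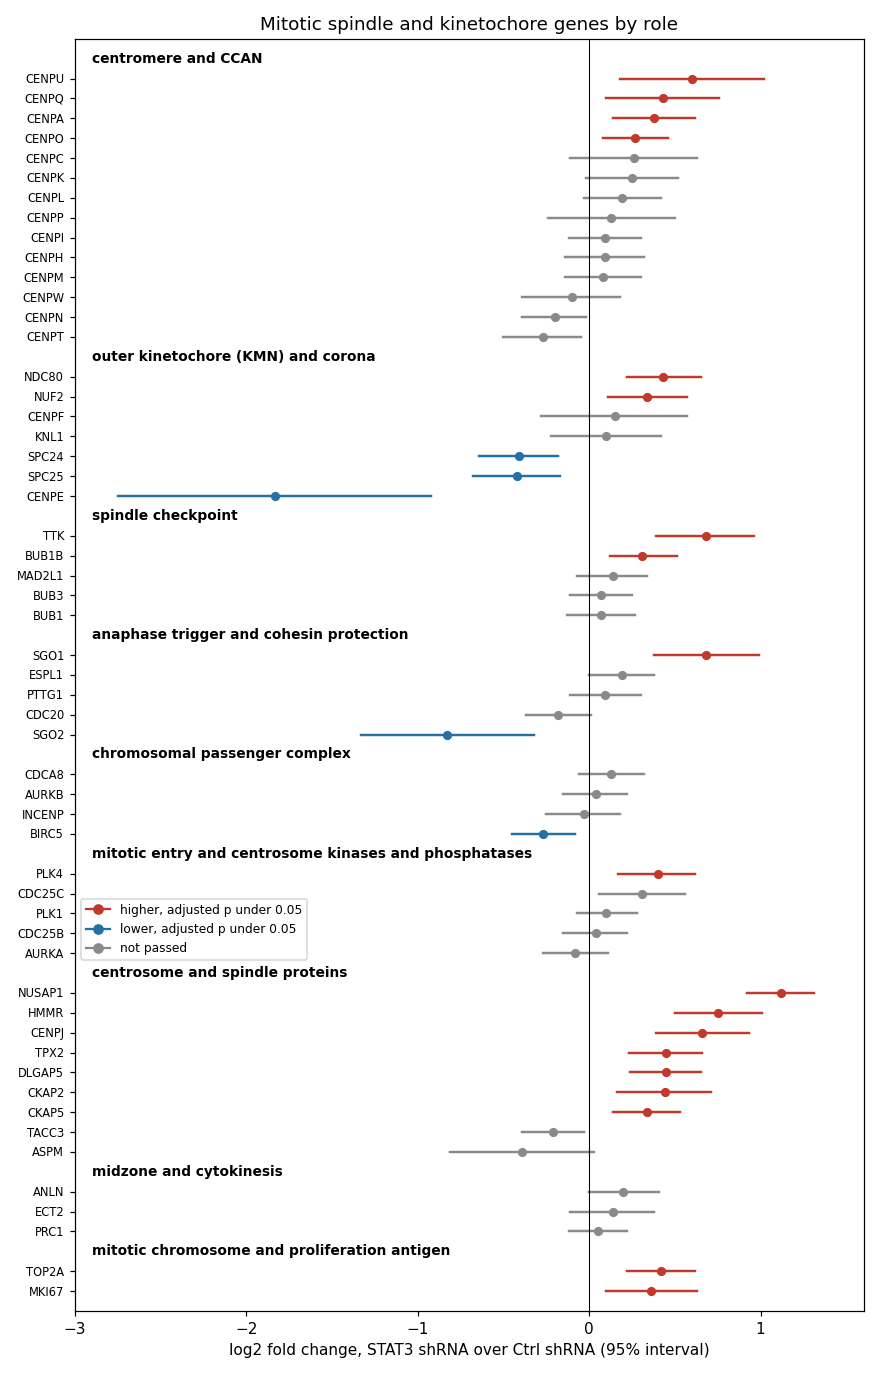
Log2 fold change (x axis, STAT3 shRNA over Ctrl shRNA) of each of the 54 genes, grouped by role, with its 95% interval from the edgeR quasi-likelihood fit on 2 libraries per group. Red points rose and blue points fell at an adjusted p under 0.05, and grey points did not pass; 7 of the 9 centrosome and spindle genes are red, and 3 of the 5 blue points are outer kinetochore genes.

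How many genes passed depended on single libraries. Without STAT3 shRNA library 1, 7 of the 54 genes were higher (13%, against 7.19% of all tested genes) and 2 were lower (3.7%, against 8.92%). Without STAT3 shRNA library 2, 7 were higher (13%, against 7.23%) and 1 was lower (1.85%, against 8.95%). Without Ctrl shRNA library 1, 24 were higher (44.4%, against 21%) and 9 lower (16.7%, against 24.5%), and without Ctrl shRNA library 2, 17 were higher (31.5%, against 16%) and 8 lower (14.8%, against 18.3%). With the replicate number as a block 17 were higher (31.5%, against 17.1%) and 6 lower (11.1%, against 18.8%). With limma-trend on the deposited FPKM 12 were higher (22.2%, against 8.88% of tested genes at a pseudocount of 1 and 8.65% at 0.1) and 0 were lower (against 7.8% and 7.76%). With an edgeR threshold of 0.01 for the adjusted p, 9 of the 54 genes were higher and 1 of the 54 was lower. Of all tested genes 8.32% were higher and 10.7% lower at that threshold. Of the 24 genes that changed, 5 passed in each of the 14 alternative fits run per gene, namely NUSAP1, HMMR, CENPJ, TTK and SGO1, and all 5 were higher. The matching share over all tested genes was not computed, so this count has no background beside it.

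The difference between the 2 Ctrl shRNA libraries varied with base composition and with transcript length. Across the 54 genes the log2 ratio of Ctrl shRNA library 1 to library 2 fell with the GC content of the longest transcript (Spearman rho -0.61, Pearson r -0.51). Over 14542 tested genes rho was -0.45. The ratio also rose with log2 transcript length (rho 0.32 and r 0.41 across the 54 genes, rho 0.25 and r 0.09 across all tested genes). Which of the 2 lay behind the difference was not tested. The ratio of STAT3 shRNA library 1 to library 2 did not fall with GC content (rho 0.15 and r 0.18 across the 54 genes). The log2 fold change between groups also fell with GC content, with rho -0.30 and r -0.12 across the 54 genes and rho -0.34 and r -0.18 across all tested genes. These are descriptions, since genes of the same libraries share depth and composition and are not independent. The mitotic genes had a median GC content of 42.5%, against 48.7% over all tested genes. Of those under 40% GC, 8 of 17 rose (47.1%), against 27.2% of all tested genes in that range. Between 40% and 50% GC, 10 of 23 rose (43.5%), against 21.6%, and over 50%, 1 of 14 rose (7.14%), against 9.22%. Of falls there were 2 under 40% GC (11.8%, against 7.68%), 1 between 40% and 50% (4.35%, against 10.8%) and 2 over 50% (14.3%, against 29.8%). The 2 falls under 40% GC were CENPE (35.3% GC) and SGO2 (34.7% GC), whose Ctrl shRNA libraries lay furthest apart. A share resting on these 2 genes is too thin to set against the background.

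With a GC offset in the fit 18 mitotic genes were higher (33.3%, against 16.5% of all tested genes) and 7 lower (13%, against 19.3%), with a median log2 fold change of 0.13. NUSAP1 then had a log2 fold change of 0.95, HMMR 0.56, SGO1 0.50, TTK 0.48 and CENPJ 0.47, and each of these passed. With that offset CENPU, CENPQ, NUF2, BUB1B and PLK4 no longer passed. CENPM, ESPL1, PLK1 and CDC25B passed as higher, and CENPN and ASPM as lower.

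**Figure D2:**
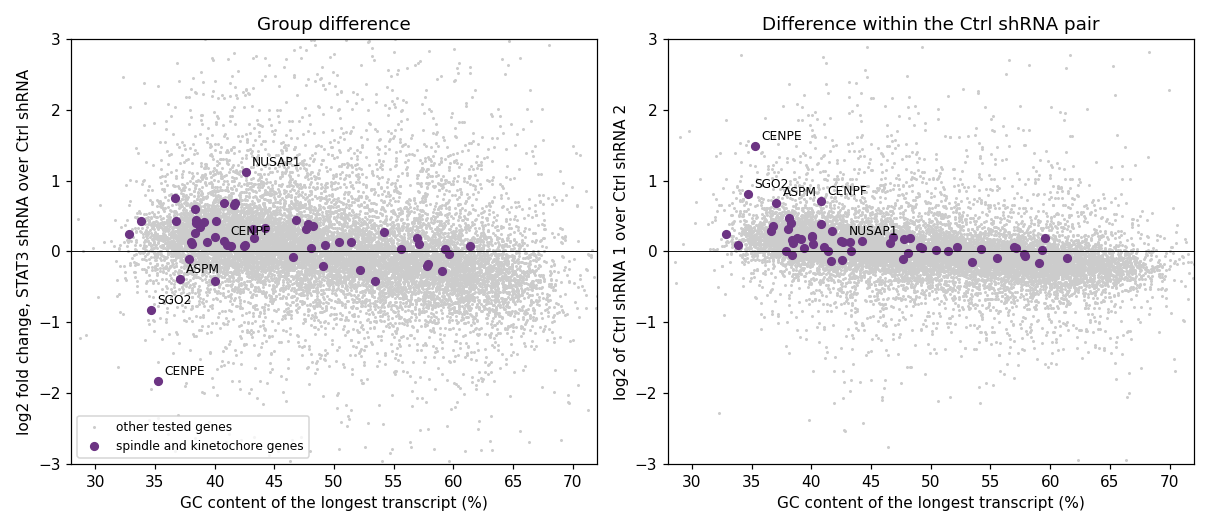
GC content of the longest transcript (x axis, percent) against log2 fold change between the groups (left, y axis) and against the log2 ratio of Ctrl shRNA library 1 to library 2 (right, y axis), for the 54 mitotic genes (purple) and the other tested genes (grey); both y axes are drawn from -3 to 3. Across the 54 genes the ratio of Ctrl shRNA library 1 to library 2 falls with GC content (rho -0.61), and the fold change has a weaker rank correlation with it (rho -0.30).

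The promoters of the 2 genes that rose most and the 2 that fell most, and of PLK1, a mitotic gene that did not pass, are printed to show the promoter elements of this gene class. The cell cycle genes homology region (CHR, searched as TTTGAA or TTCGAA) is bound by MuvB complexes, and the CCAAT box (searched as CCAAT) by the trimeric factor NF-Y. Capitals mark CHR and CCAAT matches on either strand, so a CCAAT box on the opposite strand reads ATTGG and a CHR TTCAAA or TTCGAA. Each line starts 250 bases before the RefSeq transcription start listed first for the gene and ends 30 bases after it, 5′ to 3′ on the gene's strand, from RefSeq on GRCh38.p14, and that start can differ from the gene start in GENCODE 29. They lie at chr15:41332631-41332910 on the plus strand for NUSAP1, chr5:163460382-163460661 on the plus strand for HMMR, chr4:103198314-103198593 on the minus strand for CENPE, chr2:200525892-200526171 on the plus strand for SGO2 and chr16:23678639-23678918 on the plus strand for PLK1.
NUSAP1: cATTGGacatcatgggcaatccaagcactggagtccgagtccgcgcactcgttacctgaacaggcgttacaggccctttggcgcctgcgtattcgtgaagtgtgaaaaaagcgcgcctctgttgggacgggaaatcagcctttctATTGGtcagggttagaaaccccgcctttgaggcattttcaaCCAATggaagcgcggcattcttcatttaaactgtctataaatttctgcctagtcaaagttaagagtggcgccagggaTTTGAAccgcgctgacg
HMMR: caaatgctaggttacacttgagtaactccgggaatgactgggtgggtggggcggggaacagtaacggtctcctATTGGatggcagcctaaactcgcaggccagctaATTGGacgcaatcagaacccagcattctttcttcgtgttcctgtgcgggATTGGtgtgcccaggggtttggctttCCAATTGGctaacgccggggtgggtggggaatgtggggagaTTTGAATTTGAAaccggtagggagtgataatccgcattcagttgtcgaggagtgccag
CENPE: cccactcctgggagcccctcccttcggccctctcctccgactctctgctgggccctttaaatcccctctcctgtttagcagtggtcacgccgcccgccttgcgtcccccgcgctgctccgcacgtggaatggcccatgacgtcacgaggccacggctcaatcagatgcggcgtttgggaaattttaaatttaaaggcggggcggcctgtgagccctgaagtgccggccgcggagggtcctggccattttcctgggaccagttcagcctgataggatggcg
SGO2: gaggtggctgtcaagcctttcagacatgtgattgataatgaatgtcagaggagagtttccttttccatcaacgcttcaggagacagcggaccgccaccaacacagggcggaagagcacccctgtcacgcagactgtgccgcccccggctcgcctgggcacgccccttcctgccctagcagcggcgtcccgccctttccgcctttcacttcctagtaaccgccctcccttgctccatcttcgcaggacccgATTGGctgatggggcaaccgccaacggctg
PLK1: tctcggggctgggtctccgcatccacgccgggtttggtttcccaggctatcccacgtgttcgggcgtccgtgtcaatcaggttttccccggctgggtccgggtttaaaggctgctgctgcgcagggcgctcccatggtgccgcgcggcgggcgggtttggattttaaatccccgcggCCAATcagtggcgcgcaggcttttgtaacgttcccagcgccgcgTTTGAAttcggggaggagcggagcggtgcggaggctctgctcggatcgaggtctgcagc

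HMMR holds 2 adjoining CHR matches and 5 CCAAT matches, of which a pair overlaps. NUSAP1 holds 1 CHR and 3 CCAAT matches, and PLK1 1 CHR and 1 CCAAT match. CENPE holds neither motif in this window, and SGO2 holds 1 CCAAT match. A promoter of 300 bases, reaching 50 bases past the start, was listed for 44 of the 54 genes. A CHR match was present in 29 of the 44 (65.9%), against 16.6% of 27305 listed promoters, and a CCAAT match in 30 (68.2%), against 35.7%. Both a CHR and 2 or more CCAAT matches were present in 17 (38.6%), against 1.98%. The STAT consensus, searched as TTCNNNGAA, was present in 4 (9.09%), against 7.88% of all promoters. By result, a CHR match was present in 13 of 16 genes that rose, 1 of 4 that fell and 15 of 24 that did not pass. A match is a description of letters in the window and not a measured binding site.

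In the centromere and CCAN group, 4 of 14 genes rose (28.6%, against 16.8% of all tested genes). None fell (against 18.7%), and the median log2 fold change was 0.16. CENPA is the histone H3 variant that marks the centromere. CENPA had 50.05 and 55.2 CPM with STAT3 shRNA and 42.8 and 38 CPM with Ctrl shRNA, a log2 fold change of 0.38 ± 0.10 (SE; adjusted p = 0.0209, edgeR). Both STAT3 shRNA values lay above both Ctrl shRNA values. CENPO, a subunit of the CENP-O complex that recruits PLK1, had 71.8 and 70.1 CPM with STAT3 shRNA and 59.3 and 58.2 CPM with Ctrl shRNA (log2 fold change 0.27 ± 0.08; adjusted p = 0.0339, edgeR), also without overlap. The other risers, CENPU and CENPQ, belong to the same complex as CENPO. CENPU had 11.5 and 13.4 CPM with STAT3 shRNA and 9.39 and 7.06 CPM with Ctrl shRNA (log2 fold change 0.60 ± 0.18), and CENPQ rose by 0.43 on the log2 scale, both near the threshold (adjusted p = 0.0339 and 0.045, edgeR). The groups did not overlap for CENPU. CENPP, also of that complex, did not pass (0.13). The remaining 9 had log2 fold changes between -0.27 for CENPT and 0.26 for CENPC, and none passed. They include subunits of the CENP-H/I/K/M and CENP-T/W units and CENPN, which reads the CENPA nucleosome. All 4 calls were lost with either STAT3 shRNA library left out, and those of CENPU and CENPQ also without Ctrl shRNA library 2. With FPKM in place of counts CENPU, CENPQ and CENPO did not pass, nor did they in DESeq2 (range of adjusted p over the alternatives 0.00282 to 0.31 for the 3 genes).

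The outer kinetochore split, with 2 of 7 genes higher (28.6%, against 16.8% of all tested genes) and 3 lower (42.9%, against 18.7%). The NDC80 complex is a rod of 4 subunits, of which NDC80 and NUF2 form the microtubule-binding end and SPC24 and SPC25 the end anchored in the kinetochore. NDC80 had 61 and 66.5 CPM with STAT3 shRNA and 48.9 and 45.4 CPM with Ctrl shRNA (log2 fold change 0.43 ± 0.09; adjusted p = 0.00814, edgeR). NUF2 had 51.4 and 53.9 CPM with STAT3 shRNA and 44.3 and 38.8 CPM with Ctrl shRNA (log2 fold change 0.34 ± 0.10; adjusted p = 0.0289, edgeR). For these 2 subunits the STAT3 shRNA values all lay above the Ctrl shRNA values. SPC24 had 29.5 and 28.8 CPM with STAT3 shRNA and 36.9 and 40.8 CPM with Ctrl shRNA (log2 fold change -0.41 ± 0.10; adjusted p = 0.0131, edgeR). SPC25 had 21.3 and 20.5 CPM with STAT3 shRNA and 30.2 and 26 CPM with Ctrl shRNA (log2 fold change -0.42 ± 0.11; adjusted p = 0.0198, edgeR). For the anchoring subunits the STAT3 shRNA values all lay below the Ctrl shRNA values. With either STAT3 shRNA library left out the calls of NUF2, SPC24 and SPC25 were lost, and that of NDC80 without STAT3 shRNA library 2. NUF2 also lost its call with a GC offset and in DESeq2, and SPC25 with a length offset. None of the 4 passed with FPKM, where SPC25 had a log2 difference of -0.06 (range of adjusted p over the alternatives 0.000447 to 0.748 for the 4 genes).

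CENPE, the kinesin of the fibrous corona that carries chromosomes to the metaphase plate, had the lowest log2 fold change among the 54 genes. It had 4.5 and 5.05 CPM with STAT3 shRNA and 25.1 and 8.89 CPM with Ctrl shRNA, a log2 fold change of -1.83 ± 0.40 (95% interval -2.75 to -0.92; adjusted p = 0.00836, edgeR). The groups did not overlap, but Ctrl shRNA library 1 stood far above library 2. Without Ctrl shRNA library 1 the log2 fold change was -0.93, and without library 2 it was -2.40. Its level averaged 0.955 FPKM with STAT3 shRNA and 2.11 FPKM with Ctrl shRNA. With FPKM it did not pass, at -0.60 with a pseudocount of 1 (adjusted p = 0.22, limma) and -0.93 with 0.1 (adjusted p = 0.221, limma). The range of adjusted p over its alternatives was 6.42e-21 to 0.221. The corona protein CENPF (0.15) and the scaffold KNL1 (0.10) did not pass, and their groups overlapped. Both turned negative without Ctrl shRNA library 2 (CENPF -0.17, KNL1 -0.12) and with a GC offset.

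Of the 5 spindle checkpoint genes 2 rose (40%, against 16.8% of all tested genes) and none fell (against 18.7%). TTK, the kinase MPS1 that starts checkpoint signalling at unattached kinetochores, had 70.3 and 72.4 CPM with STAT3 shRNA and 50.5 and 38.7 CPM with Ctrl shRNA (log2 fold change 0.68 ± 0.12; adjusted p = 0.00363, edgeR). BUB1B, the BUBR1 subunit of the mitotic checkpoint complex, had 151 and 145 CPM with STAT3 shRNA and 124 and 114 CPM with Ctrl shRNA (log2 fold change 0.31 ± 0.09; adjusted p = 0.0203, edgeR). The groups did not overlap for either gene. MAD2L1 (0.14), BUB3 (0.07) and BUB1 (0.07) did not pass. The BUB1B call was lost with either STAT3 shRNA library left out, with FPKM and with a GC offset (range of adjusted p over its alternatives 0.00156 to 0.249).

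The shugoshins, which protect cohesin at centromeres until anaphase, went opposite ways. SGO1 had 22.9 and 22.5 CPM with STAT3 shRNA and 15.6 and 12.7 CPM with Ctrl shRNA (log2 fold change 0.68 ± 0.13; adjusted p = 0.00483, edgeR). SGO2 had 17.1 and 15.9 CPM with STAT3 shRNA and 37.4 and 21.3 CPM with Ctrl shRNA (log2 fold change -0.83 ± 0.22; adjusted p = 0.0199, edgeR). Neither gene's groups overlapped, and the Ctrl shRNA libraries lay further apart for SGO2. The SGO2 value was -0.40 without Ctrl shRNA library 1 and -1.18 without library 2, and the call was lost without STAT3 shRNA library 2 and with FPKM (range of adjusted p over its alternatives 1.13e-08 to 0.0937). The anaphase trigger genes did not pass. These were CDC20 (-0.18), the activator of the anaphase-promoting complex, the separase ESPL1 (0.19) and its inhibitor securin, PTTG1. PTTG1 had 114 and 100.2 CPM with STAT3 shRNA and 102 and 99 CPM with Ctrl shRNA (log2 fold change 0.09 ± 0.09), and its groups overlapped.

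Of the chromosomal passenger complex, the Aurora B module that corrects wrong attachments, 1 of 4 genes fell and none rose. The share of falls was 25%, near the 18.7% of all tested genes. BIRC5, which encodes survivin, had 138 and 133 CPM with STAT3 shRNA and 167 and 159.6 CPM with Ctrl shRNA (log2 fold change -0.27 ± 0.08; adjusted p = 0.0312, edgeR). CDCA8, which encodes borealin, had 82.2 and 77.4 CPM with STAT3 shRNA and 73.1 and 73.1 CPM with Ctrl shRNA, and did not pass (0.13 ± 0.08; adjusted p = 0.27, edgeR). Neither gene's groups overlapped, but these shifts were small. The kinase AURKB (0.04) and the scaffold INCENP (-0.03) did not pass. The BIRC5 call was lost with either STAT3 shRNA library left out, with upper-quartile scaling and with FPKM (range of adjusted p over its alternatives 0.00468 to 0.308).

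Among the mitotic entry and centrosome kinases and phosphatases, 1 of 5 genes rose (20%, near the 16.8% of all tested genes). PLK4, the kinase that starts centriole duplication, had 41.2 and 39.9 CPM with STAT3 shRNA and 32.1 and 29.6 CPM with Ctrl shRNA (log2 fold change 0.40 ± 0.10; adjusted p = 0.0138, edgeR), without overlap. Its call was lost with either STAT3 shRNA library left out and with a GC offset. With FPKM its log2 difference was -0.02 where the limma test did not pass it, so PLK4 had no direction that held on both scales (range of adjusted p over its alternatives 0.00211 to 0.907, the count and FPKM fits included). CDC25C, a phosphatase that activates CDK1, had 23.6 and 24.9 CPM with STAT3 shRNA and 18.8 and 20.3 CPM with Ctrl shRNA, and did not pass (0.31 ± 0.11; adjusted p = 0.0569, edgeR), although its groups did not overlap. PLK1 (0.10), CDC25B (0.04) and AURKA (-0.08) did not pass either. For the master kinases of mitosis the 95% intervals of the log2 fold change were -0.07 to 0.28 for PLK1, -0.27 to 0.11 for AURKA and -0.15 to 0.22 for AURKB.

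The centrosome and spindle proteins held more rises than any other role group, 7 of 9 genes (77.8%, against 16.8% of all tested genes). Their median log2 fold change was 0.45, and none fell. NUSAP1, a microtubule-bundling protein of the central spindle, had 349 and 341 CPM with STAT3 shRNA and 167 and 151 CPM with Ctrl shRNA. The groups lay far apart, 2.17-fold higher with STAT3 shRNA (log2 fold change 1.12 ± 0.09; 95% interval 0.92 to 1.31; adjusted p = 4.85e-05, edgeR). Its level per length averaged 237 FPKM (fragments scaled to gene length and library size) with STAT3 shRNA and 119 FPKM with Ctrl shRNA. With STAT3 shRNA that was the highest mean of the 54 genes, while with Ctrl shRNA PTTG1 was highest. PTTG1 averaged 227 FPKM with STAT3 shRNA and 213 FPKM with Ctrl shRNA, and PRC1 177 FPKM with STAT3 shRNA and 171 FPKM with Ctrl shRNA. HMMR, a hyaluronan receptor that acts at the spindle pole, had 83.7 and 75.4 CPM with STAT3 shRNA and 51.9 and 42.5 CPM with Ctrl shRNA (log2 fold change 0.75 ± 0.11; adjusted p = 0.00137, edgeR). CENPJ, a centriole elongation factor also called CPAP, had 24.3 and 23.1 CPM with STAT3 shRNA and 14.3 and 15.7 CPM with Ctrl shRNA (log2 fold change 0.66 ± 0.12; adjusted p = 0.00324, edgeR). Neither gene's groups overlapped.

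The other 4 risers of the centrosome and spindle group were TPX2 (0.45), which activates Aurora A at the spindle, DLGAP5 (0.45), a kinetochore-fibre stabiliser also called HURP, CKAP2 (0.44), and CKAP5 (0.34), the microtubule polymerase ch-TOG. TPX2 lost its call without STAT3 shRNA library 1 and DLGAP5 without library 2, and CKAP2 and CKAP5 lost theirs with either left out, CKAP2 also with FPKM (range of adjusted p over the alternatives 2.93e-05 to 0.213 for the 4 genes). The partner of CKAP5 in the spindle, TACC3 (-0.21), and the spindle pole protein ASPM (-0.39) did not pass. ASPM had 105 and 94.8 CPM with STAT3 shRNA and 162 and 101 CPM with Ctrl shRNA, so its groups overlapped.

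None of the 3 midzone and cytokinesis genes passed. ANLN, the cleavage furrow scaffold anillin, had 284 and 286 CPM with STAT3 shRNA and 265 and 230.3 CPM with Ctrl shRNA (log2 fold change 0.20 ± 0.09; adjusted p = 0.112, edgeR). ECT2, the exchange factor that activates RhoA at the furrow, had 205 and 213 CPM with STAT3 shRNA and 211 and 169 CPM with Ctrl shRNA (0.14 ± 0.11; adjusted p = 0.366, edgeR). The groups overlapped for ECT2 and not for ANLN. PRC1, the midzone microtubule crosslinker, had 339 and 333 CPM with STAT3 shRNA and 322 and 327 CPM with Ctrl shRNA (0.05 ± 0.08; adjusted p = 0.65, edgeR), a gap that did not pass although the groups did not overlap.

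Both general markers of cycling cells rose. TOP2A, the topoisomerase that untangles mitotic chromosomes, had 635 and 619 CPM with STAT3 shRNA and 497 and 439.6 CPM with Ctrl shRNA (log2 fold change 0.42 ± 0.09; adjusted p = 0.00629, edgeR). MKI67, the Ki-67 proliferation antigen that coats mitotic chromosomes, had 551 and 437 CPM with STAT3 shRNA and 409 and 358 CPM with Ctrl shRNA (log2 fold change 0.36 ± 0.12; adjusted p = 0.0408, edgeR). Groups did not overlap for either gene, and for MKI67 the lower STAT3 shRNA library lay close to the higher Ctrl shRNA library. The TOP2A call was lost with either STAT3 shRNA library left out (range of adjusted p over its alternatives 6.22e-05 to 0.0764). The MKI67 log2 fold change was 0.19 without STAT3 shRNA library 1 and 0.52 without library 2, and its call was lost without STAT3 shRNA library 1, without Ctrl shRNA library 2, with a length offset and with FPKM (range of adjusted p over its alternatives 0.000759 to 0.439).

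**Figure D3:**
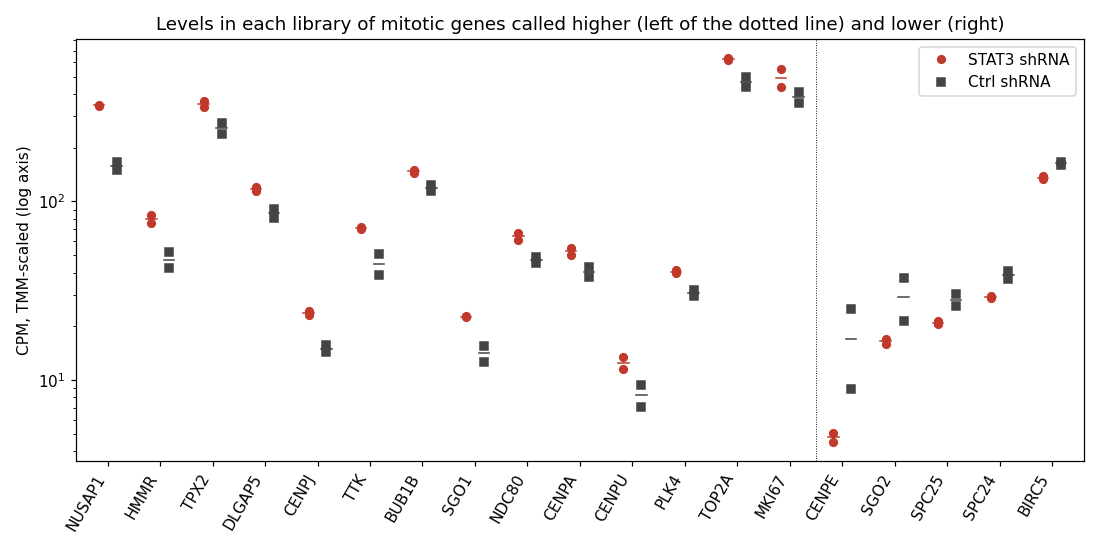
CPM (y axis, log scale) of selected mitotic genes in each library, with red STAT3 shRNA points left of grey Ctrl shRNA points and a line at each mean; genes left of the dotted line rose and those right of it fell. NUSAP1 has 349 and 341 CPM with STAT3 shRNA and 167 and 151 CPM with Ctrl shRNA, and the Ctrl shRNA libraries of CENPE lie apart at 25.1 and 8.89 CPM.

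Genomic neighbours of the mitotic genes were compared, using the positions of GENCODE 29 on GRCh38. The 54 genes lie on 21 chromosomes. For each one the median log2 fold change of the other tested genes starting within 2 Mb was taken. Across the 54 genes this median and the gene's own log2 fold change had a Spearman rho of 0.47 and a Pearson r of 0.35, a description over genes of the same libraries. It was above 0 for 13 of the 19 genes that rose and below 0 for 4 of the 5 that fell. Genes that did not pass lay on both sides, more often above 0, from 0.46 for PTTG1 to -0.19 for AURKB. The counts alone therefore say little about the genes that changed. SPC25 (chr2:168834132-168913371) lay among 15 genes with a median of -0.45, close to its own -0.42, and SGO2 (chr2:200510008-200583782) among 26 with a median of -0.38. BIRC5 (chr17:78214186-78225636) lay among genes with a median of -0.24. SGO1 had 3 such neighbours, with a median of 1.03. CENPA and CENPO, both on chromosome 2, lay among genes with medians of 0.36 and 0.40. NUSAP1 (chr15:41332694-41381050) had neighbours with a median of 0.05, and CENPE (chr4:103105806-103198409) neighbours with a median of 0.19, values unlike the genes' own 1.12 and -1.83. The part of position in the results was not tested.

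**Figure D4:**
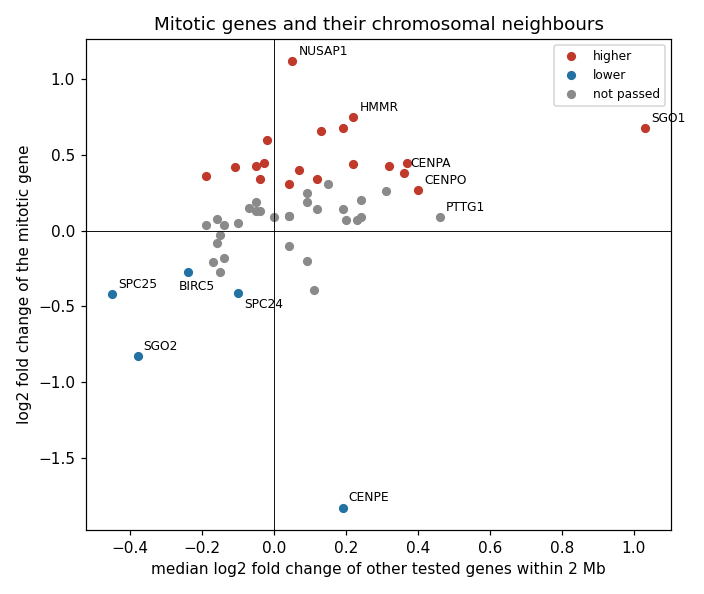
Median log2 fold change of the other tested genes starting within 2 Mb (x axis) against the log2 fold change of the mitotic gene itself (y axis), STAT3 shRNA over Ctrl shRNA, 1 point per gene, red where the gene rose, blue where it fell and grey where it did not pass. SPC25 and SGO2 lie below 0 on both axes, furthest to the left, while NUSAP1 lies at 1.12 with a neighbour median of 0.05.

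Whether strand was used in counting is not given in the sources used here, so reads cannot be assigned with certainty where genes overlap. For 10 of the 54 genes an overlapping gene held at least 20% as many reads, and 5 of these 10 had changed, namely CENPA, CENPO, CENPU, SGO2 and SPC24. Of all 54 genes 24 had changed, and of all tested genes 35.5%, so no link between overlap and change is read from this count. CENPA overlaps SLC35F6 on the same strand, which also rose by 0.38 on the log2 scale (adjusted p = 0.0113, edgeR). The partners of CENPO (ADCY3 -0.17, PTRHD1 0.05), CENPU (PRIMPOL 0.13) and SGO2 (KCTD18 -0.11) did not pass. Near-identical copies were found for AURKA, CDC20, PRC1 and PTTG1, and summing the reads of gene and copies left their log2 ratios at -0.07, -0.18, 0.05 and 0.09. For AURKA the added reads were mostly those of RAB3GAP2 (4931, against 23 for AURKAP1), a separate gene with a transcript that matches part of AURKA. That sum therefore does not show whether AURKA reads were misassigned. For NUSAP1 the annotation holds a transcript of AC087721.2 that matches most of its length, and the reads of that gene were not analysed here.

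The rest of the mitotic machinery was read from further lists of genes. The background over all tested genes was 16.8% higher and 18.7% lower. Of 25 other tested centromere and kinetochore genes 8 rose (32%) and 3 fell (12%), with a median log2 fold change of 0.08. SPDL1, the dynein adaptor spindly, had 95.7 and 92.3 CPM with STAT3 shRNA and 59.8 and 53.4 CPM with Ctrl shRNA (log2 fold change 0.73 ± 0.09; adjusted p = 0.000558, edgeR). CENPX, a small histone-fold protein shared with the Fanconi anaemia core, had 36.9 and 41.1 CPM with STAT3 shRNA and 72 and 100.3 CPM with Ctrl shRNA (log2 fold change -1.15 ± 0.15; adjusted p = 0.000664, edgeR). The groups did not overlap for either gene. Of 18 genes of the anaphase-promoting complex and its regulators 5 rose (27.8%) and 2 fell (11.1%). The risers included its ubiquitin-conjugating enzyme UBE2C (0.47; adjusted p = 0.00339, edgeR) and its core subunit CDC27 (0.45; adjusted p = 0.00454, edgeR). Of 20 cohesin and condensin genes 9 rose (45%) and 2 fell (10%), led by the cohesin acetyltransferase ESCO2 (0.69; adjusted p = 0.00213, edgeR) and the cohesin subunit STAG2 (0.50; adjusted p = 0.00694, edgeR). Of 10 G2/M cyclins and kinases 4 rose (40%) and 2 fell (20%). WEE1, the kinase that inhibits CDK1, rose by 0.48 on the log2 scale (adjusted p = 0.0055, edgeR) and MASTL, the Greatwall kinase, by 0.47 (adjusted p = 0.00908, edgeR).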

How the data were processed

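RNA-seq of 4 libraries labelled HepG2 was analysed, 2 with STAT3 shRNA and 2 with Ctrl shRNA. Per the file headers, the authors deposited 2 tables, 1 of raw read counts and 1 of FPKM, both by gene. How reads were aligned and counted, on which build and with or without strand, is not given in the sources used here. Sample titles gave the groups. Their numbers served as replicate numbers, and the columns marked "Si" were taken to be STAT3 shRNA, which the labels do not explain.

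The test was edgeR's quasi-likelihood test (version 4.0.16, R 4.3.3) on counts (TMM scaling, filterByExpr defaults, glmQLFit and glmQLFTest, group as the only term, two-sided, Benjamini-Hochberg over 15199 genes, threshold 0.05). CPM are TMM-scaled. Errors of log2 fold changes are SEs. The coefficient of variation between libraries, from the common dispersion, was 0.0984. Across tested genes, the difference of library 1 minus library 2 within Ctrl shRNA had a correlation of -0.0242 with that within STAT3 shRNA. The numbers were therefore not taken to pair samples. Read floors cover counting error only.

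Alternatives were RLE and upper-quartile scaling, no filter, at least 5 CPM in 2 libraries, a replicate block, each library left out, offsets for GC content and length (lowess), DESeq2 1.42.0, limma-trend (limma 3.58.1) on log2(FPKM + 1) and log2(FPKM + 0.1), and a threshold of 0.01. Fold changes on the FPKM scale understate changes of low genes. The fit was tested on simulated data.

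The members, role groups and further lists were chosen with earlier results of these data known. Genes given in every library are, per role group, the 2 with the smallest p, then the 5 largest and 5 smallest log2 fold changes among those that passed, all that fell, the 3 with the most reads per kilobase, MKI67 and TOP2A. Of each further list the 2 smallest p-values are named, except that some values are not reported here. NUF2, CENPU, ASPM, FOXM1 and MYBL2 were added after their values were seen. Positions, transcript lengths and GC content come from GENCODE 29, copies were sought by blastn at 90% identity over 40% of a transcript, and promoters come from RefSeq GRCh38.p14.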

Additional observations from a re-analysis of the deposited data

How the results depend on the processing

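With 2 libraries per group, leaving one out leaves 1, which is assumed to vary like the other group. Over these 4 fits the count of changed genes among all tested ranged from 2527 to 7291 (5396 with all libraries), mitotic genes that rose from 7 to 24 (19), those that fell from 1 to 9 (5), and their median log2 fold change from 0.12 to 0.17 (0.14). With FPKM + 1 and FPKM + 0.1 the tested genes called were 2535 and 2494, the mitotic genes that rose 12 and 12 and that fell 0 and 0, and the median 0.19 and 0.20. At a threshold of 0.01 these counts were 2897, 9 and 1. With upper-quartile scaling the median was 0.18, where that of all tested genes moved to 0.07. The cause of these differences was not tested.

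The replicate block gave 17 genes that rose and 6 that fell, with 5447 changed over all tested genes. It lost CENPQ and CENPO and gained ASPM. The numbers share only a label, and no more is read from it.

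Under these alternatives no gene that passed changed direction apart from PLK4, at -0.02 on both FPKM scales. The other reversals were of genes that had not passed. With a GC offset the log2 fold changes were -0.0054 for ANLN, -0.0079 for PRC1, -0.04 for CENPF, -0.07 for ECT2, -0.08 for CENPH, -0.08 for MAD2L1, -0.10 for BUB1, -0.10 for KNL1, -0.11 for CENPI, -0.12 for BUB3 and 0.17 for INCENP. With a length offset they were -0.0061 for CENPP, -0.0062 for CDC25B, -0.03 for KNL1, -0.06 for BUB3 and 0.08 for CENPW. With FPKM they were -0.28 and -0.29 for BUB3, 0.02 and 0.02 for CENPN and 0.11 and 0.11 for INCENP, the last at 0.01 with upper-quartile scaling. Without single libraries, log2 fold changes ranged from -0.0033 to 0.15 for CENPH, -0.04 to 0.08 for AURKB, -0.13 to 0.03 for INCENP, -0.0057 to 0.11 for BUB1, -0.02 to 0.27 for ECT2, -0.12 to 0.32 for KNL1, -0.17 to 0.51 for CENPF, -0.0027 to 0.18 for PTTG1, -0.0086 to 0.08 for CDC25B and -0.05 to 0.28 for CENPP. The lowest count of any of the 54 genes in a library was 93 reads, for CENPE with STAT3 shRNA, against a floor of 3 reads.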

Other observations

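Genes that act ahead of mitosis were read in the same fit. Of 22 tested regulators of mitotic gene transcription 7 (31.8%) rose and none fell, against 16.8% and 18.7% of all tested genes. FOXM1 (log2 fold change 0.12; adjusted p = 0.277, edgeR) and MYBL2, the gene of B-MYB (0.18; adjusted p = 0.142, edgeR), did not pass. E2F8, an atypical E2F repressor, had 22.6 and 21.9 CPM with STAT3 shRNA and 10.2 and 10.4 CPM with Ctrl shRNA, a log2 fold change of 1.11 ± 0.12 (adjusted p = 0.000328, edgeR). TFDP2, a dimer partner of E2F proteins, had 87.5 and 86.6 CPM with STAT3 shRNA and 53.4 and 57 CPM with Ctrl shRNA (0.66 ± 0.09; adjusted p = 0.000686, edgeR). The groups did not overlap for either gene.

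Of 22 genes of S-phase entry and replication licensing 5 rose (22.7%, near the 16.8% of all tested genes). None fell (against 18.7%), and the median log2 fold change was 0.11. RRM2, the regulated subunit of ribonucleotide reductase, had 464 and 469 CPM with STAT3 shRNA and 297 and 292 CPM with Ctrl shRNA (0.66 ± 0.08; adjusted p = 0.000382, edgeR). Both STAT3 shRNA values lay above both Ctrl shRNA values. Of 23 genes of gamma-tubulin, augmin and the centriole 4 rose (17.4%) and 5 fell (21.7%), shares near those of all tested genes. The falls included the gamma-tubulin ring subunits TUBGCP6 (-0.56; adjusted p = 0.00384, edgeR) and TUBGCP2 (-0.42; adjusted p = 0.00516, edgeR). The lists share their libraries with the mitotic genes, so they are no independent check of them.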
